A study of Homo sapiens with 9 samples.

Results

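N6-methyladenosine (m6A) is the most frequent internal mark of mRNA, and the 10 genes described here encode the proteins that place it, remove it and read it. METTL3, METTL14 and WTAP form the core of the writer complex, FTO and ALKBH5 are the demethylases, and YTHDF1, YTHDF2, YTHDF3, YTHDC1 and YTHDC2 carry the YTH domain that binds the mark. They were chosen by name, as the rows of both deposited tables whose gene symbol equalled a member, and all 10 of 10 were found once each among the 58174 genes listed. The question was whether the mRNAs of this machinery themselves moved when IGF2BP1, a protein also proposed to read m6A, or SRF, a transcription factor, was depleted.

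ES-2 cells come from an ovarian carcinoma and are kept as a permanent line. Their total RNA was sequenced 72 h after transfection with control siRNAs (siC), with siRNAs against IGF2BP1 (siIGF2BP1) or with siRNAs against SRF (siSRF), in 3 libraries per condition. All groups shared the parental line and the medium, and each was transfected with siRNAs. The depletions were transient knockdowns by siRNA pools rather than gene deletions. Protein and the m6A mark itself were not measured in these libraries. The depth was 6421764 to 9416175 gene-assigned reads per library (median 7377934). Of the markers checked, KRT7 lay between 97.5 and 158 FPKM and VIM between 837 and 1065 FPKM over the 9 libraries. PAX8 and WT1 stayed at or below 0.262 FPKM, and MUC16, another marker of ovarian tumours, was listed at 0 in every library. The leukocyte marker PTPRC and the hepatocyte marker ALB were also listed at 0.

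The writer complex methylates adenosines within a short consensus. METTL3 is its catalytic subunit, METTL14 is a partner that holds the RNA, and WTAP anchors both in the nucleus. ALKBH5 and FTO reverse the mark by oxidation. Among the readers, the cytoplasmic YTHDF2 recruits deadenylation and speeds mRNA decay, YTHDF1 and YTHDF3 are its close relatives with reported roles in translation and decay, the nuclear YTHDC1 acts in splicing and export, and YTHDC2 is a helicase best known from the germ line.

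FPKM, the deposited unit, scales fragments by gene length and by library depth. Levels of different genes can be set side by side only as far as the length used suits the transcripts present. Under siC the order of the mean levels ran from ALKBH5 at 39.4 FPKM ± 2.07 (SD, n = 3) through YTHDF2 (28.0 ± 1.65), YTHDF3 (17.6 ± 0.848), YTHDF1 (16.8 ± 0.933), WTAP (14.0 ± 0.489), METTL3 (12.4 ± 0.988), YTHDC2 (9.11 ± 0.408), YTHDC1 (3.94 ± 0.546) and METTL14 (2.50 ± 0.232) to FTO at 2.21 ± 0.0761. YTHDF3 and YTHDF1 overlapped in their libraries, as did WTAP and METTL3, and METTL14 and FTO, whereas every other pair of neighbours in this order was separated. ALKBH5 exceeded 93.5% of the 14217 protein-coding genes with a value in siC, and FTO exceeded 36.6% of them. The gene length that the tables give FTO is 21379 bases, above the 3190 to 10816 bases of the other members, and its level is divided by that length. For METTL3 and WTAP the listed lengths, 5894 and 5830 bases, exceed the 1980 and 2105 bases of their main GENCODE transcripts. For ALKBH5, YTHDF1 and METTL14 they were close, at 3190, 3301 and 6862 against 3159, 3198 and 6642 bases. The order of the genes therefore depends on the length used. The plot of FPKM by library shows these levels and the spread of the 3 libraries of each condition.

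**Figure D1:**
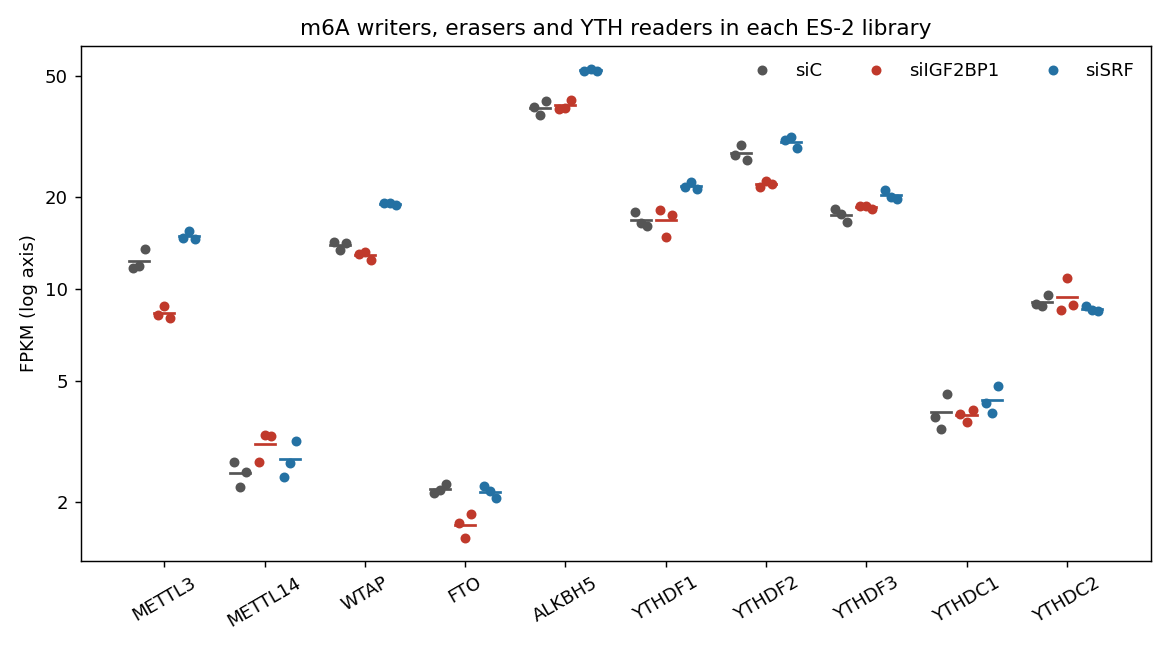
FPKM of the 10 mRNAs (log axis) in each siC, siIGF2BP1 and siSRF library; points are libraries and lines are group means. The siIGF2BP1 libraries lie below the siC libraries for METTL3, WTAP, FTO and YTHDF2, and narrowly above them for METTL14 and YTHDF3. The siSRF libraries lie above the siC libraries for METTL3, WTAP, ALKBH5, YTHDF1 and YTHDF3. The share of all genes separated in this way was not counted, and WTAP, FTO, METTL14 and YTHDF3 did not pass the test in siIGF2BP1.

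The knockdowns were read first from their target mRNAs. IGF2BP1 was at 12.8, 13.5 and 12.1 FPKM in the siC libraries and at 4.18, 4.14 and 4.02 FPKM in the siIGF2BP1 libraries, a log2 fold change of -1.61 (limma adjusted p = 0.000141). SRF was at 13.6, 14.1 and 16.0 FPKM in siC and at 1.63, 1.36 and 1.42 FPKM in siSRF, a log2 fold change of -3.22 (limma adjusted p = 6.07e-05). SRF was also lower in siIGF2BP1, at 5.80, 5.42 and 6.80 FPKM, with a log2 fold change of -1.26 (limma adjusted p = 0.00111). The siIGF2BP1 libraries thus carried a reduced SRF mRNA as well, while IGF2BP1 differed from siC by 0.15 on the log2 scale in siSRF (limma adjusted p = 0.119).

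Upon IGF2BP1 depletion, 1 of the 10 mRNAs passed the threshold of an adjusted p of at most 0.01, and it was METTL3, the catalytic subunit, which fell. Over all genes tested the share called at this threshold was 7.12%. At an adjusted p of at most 0.05, YTHDF2, the decay-promoting reader, fell as well, which made 2 of 10 where 16.1% of all genes were called. Genes of at least 1 FPKM, a range that holds all 10 members, were called more often. Of these 14263 genes, 743 rose and 784 fell at 0.01, and 1536 rose and 1770 fell at 0.05. The median log2 fold change of the members was -0.01, against 0.02 for the 22292 genes tested, and the median size was 0.10, against 0.26 for genes of at least 1 FPKM. FPKM is relative to the other RNAs of a library, so a change in the total RNA per cell and a change in the number of cells cannot be seen in these values or told apart.

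METTL3 was at 11.8, 11.9 and 13.5 FPKM in siC and at 8.21, 8.82 and 8.05 FPKM in siIGF2BP1. Every siIGF2BP1 library lay below every siC library. The mean was 67.4% of siC, a change of -0.56 on the log2 scale (standard error 0.077, 95% interval -0.75 to -0.37) with limma adjusted p = 0.00549. A two-sided exact permutation test gave p = 0.1, which 3 libraries against 3 cannot go below. These values rest on 371 to 577 reads per library. The call did not survive the loss of a library, since leaving out any one of the 6 gave limma adjusted p values between 0.0146 and 0.0293 with log2 fold changes between -0.60 and -0.50. On the recovered reads with limma-voom the adjusted p was 3.48e-06.

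METTL3 shares 1043 bases with the gene TOX4, which lies on the opposite strand, and whether the counting used strand is not given in the sources used here. TOX4 was at 9.17 FPKM ± 0.689 in siC, 8.54 ± 0.374 in siIGF2BP1 and 11.4 ± 0.680 in siSRF (SD, n = 3). The ranges of TOX4 in siC and siIGF2BP1 overlapped, and its siSRF libraries lay above both. Reads from the shared stretch cannot be told apart if the counting ignored strand.

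METTL14, the structural partner of METTL3, was at 2.72, 2.25 and 2.52 FPKM in siC and at 2.72, 3.32 and 3.30 FPKM in siIGF2BP1. Its difference was 0.31 on the log2 scale (95% interval -0.02 to 0.63, limma adjusted p = 0.19), and it rested on 105 to 192 reads per library. The highest siC library and the lowest siIGF2BP1 library of METTL14 were nearly equal. WTAP, the anchor of the complex, was at 14.3, 13.4 and 14.2 FPKM in siC and at 13.0, 13.2 and 12.5 FPKM in siIGF2BP1. The siIGF2BP1 libraries were all lower, but the log2 fold change of -0.11 did not pass the test (95% interval -0.24 to 0.01, limma adjusted p = 0.216).

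Of the demethylases, ALKBH5 was at 39.6, 37.2 and 41.3 FPKM in siC and at 39.2, 39.3 and 41.7 FPKM in siIGF2BP1. The groups overlapped, and the interval of the log2 fold change ran from -0.10 to 0.16 around 0.03. FTO was at 2.15, 2.20 and 2.30 FPKM in siC and at 1.71, 1.53 and 1.83 FPKM in siIGF2BP1. The siIGF2BP1 libraries were all lower, at 76.4% of siC on average, and the log2 fold change of -0.37 (95% interval -0.69 to -0.05) missed the threshold with limma adjusted p = 0.12. Limma-voom on the recovered reads called FTO, with an adjusted p of 0.00235. FTO shares 2247 bases with RPGRIP1L on the opposite strand, whose mean was 2.02 FPKM in siC and 2.84 FPKM in siIGF2BP1.

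Of the cytoplasmic readers, YTHDF2 was at 27.6, 29.8 and 26.6 FPKM in siC and at 21.7, 22.7 and 22.1 FPKM in siIGF2BP1. All siIGF2BP1 libraries were lower, by -0.33 on the log2 scale (standard error 0.055, 95% interval -0.47 to -0.20, limma adjusted p = 0.0109). For YTHDF2 limma-voom, run on the reads, gave an adjusted p of 0.000934. YTHDF1, at 17.9, 16.5 and 16.1 FPKM in siC and 18.2, 14.8 and 17.6 FPKM in siIGF2BP1, overlapped between the groups, with a log2 fold change between -0.22 and 0.22 at 95%. YTHDF3 was at 18.4, 17.6 and 16.7 FPKM in siC and at 18.8, 18.7 and 18.4 FPKM in siIGF2BP1. Its log2 fold change of 0.09 did not pass the test (95% interval -0.04 to 0.21, limma adjusted p = 0.338).

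The YTHDC readers overlapped between siC and siIGF2BP1. YTHDC1, the nuclear reader, was at 3.81, 3.47 and 4.54 FPKM in siC and at 3.89, 3.67 and 4.01 FPKM in siIGF2BP1, and the interval of its log2 fold change ran from -0.32 to 0.27. YTHDC2, the helicase, was at 8.93, 8.82 and 9.57 FPKM in siC and at 8.53, 10.9 and 8.91 FPKM in siIGF2BP1, with an interval from -0.21 to 0.29. For these readers, as for METTL14 and FTO, the intervals were wide beside those of ALKBH5 and YTHDF3, and a p that missed the threshold does not show equal levels.

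Upon SRF depletion, 3 of the 10 mRNAs rose at an adjusted p of at most 0.01 by limma, and 0 fell, also at an unadjusted p under 0.05 and by limma-voom. The 3 were WTAP of the writer complex, the demethylase ALKBH5 and the reader YTHDF1. Over all genes tested the share called was 12.2%, in either direction. At an adjusted p of at most 0.05, METTL3 and YTHDF3 rose as well, which made 5 of 10 where 23.8% of all genes were called. Genes of at least 1 FPKM, as all 10 members are, were called more often. Of these 14008 genes, 1465 rose and 1118 fell at 0.01, and 2768 rose and 2106 fell at 0.05. The median log2 fold change of the members was 0.17, against 0.01 for the 21857 genes tested and 0.04 for those of at least 1 FPKM. Of the members, 8 of 10 values were positive, beside 7499 of the 14008 genes of at least 1 FPKM. The median size was 0.17, against 0.31 for genes of at least 1 FPKM. The plot of log2 fold changes with their intervals sets both depletions side by side.

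**Figure D2:**
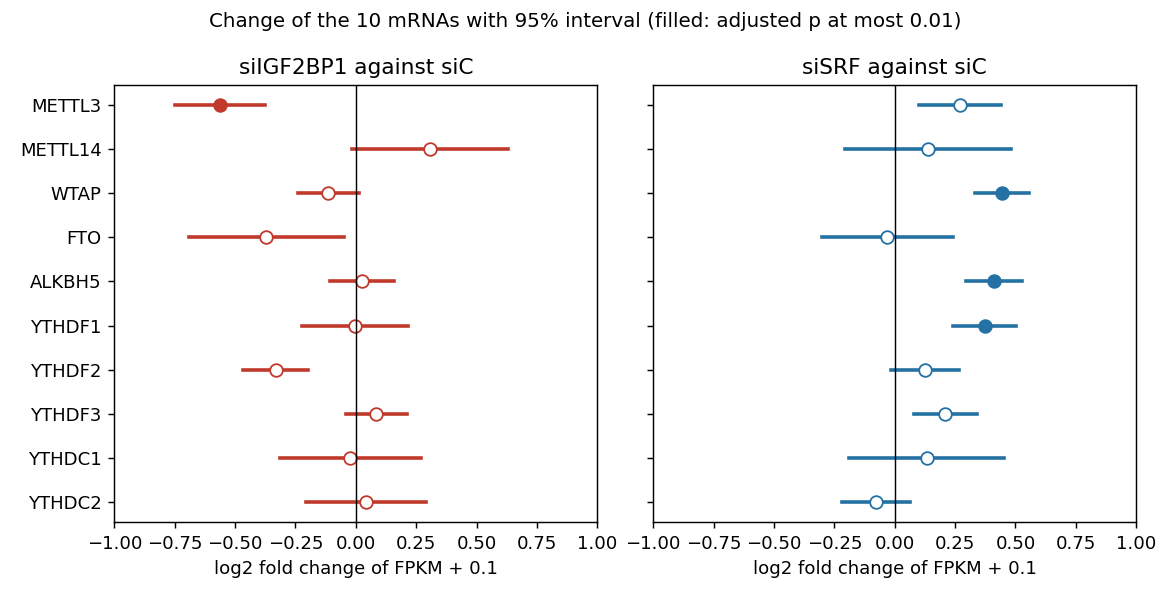
Log2 fold change of FPKM + 0.1 against siC for each of the 10 mRNAs, with the 95% interval from limma, in siIGF2BP1 (left) and siSRF (right); filled points have an adjusted p of at most 0.01. METTL3 is filled on the left, WTAP, ALKBH5 and YTHDF1 on the right, and no interval leaves the range from -0.75 to 0.63.

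WTAP was at 19.2, 19.3 and 18.8 FPKM in siSRF, above the 13.4 to 14.3 FPKM of siC in every library. The mean was 136% of siC, a rise of 0.45 on the log2 scale (standard error 0.046, 95% interval 0.33 to 0.56, limma adjusted p = 0.00147). The WTAP gene lies within SOD2 on the opposite strand in a later annotation, where the overlap spans 30735 bases. SOD2 was at 5.03 FPKM ± 0.640 in siC, 4.78 ± 0.353 in siIGF2BP1 and 4.41 ± 0.0836 in siSRF (SD, n = 3). The ranges of SOD2 overlapped between the conditions, and its part in the WTAP value was not tested.

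ALKBH5 was at 52.1, 52.7 and 52.2 FPKM in siSRF, above every siC library, and the mean was 133% of siC. The rise was 0.41 on the log2 scale (standard error 0.048, 95% interval 0.30 to 0.53, limma adjusted p = 0.00219). YTHDF1 was at 21.7, 22.4 and 21.3 FPKM in siSRF, again above every siC library, with a log2 fold change of 0.37 (standard error 0.054, 95% interval 0.24 to 0.50, limma adjusted p = 0.00481). For each of these 3 genes an exact permutation test (two-sided) came to p = 0.1, its lower limit here. Leaving out siSRF library 1, 2 or 3 reduced the number of called members from 3 to 0, 0 and 1, with WTAP still called without library 3. The changes themselves stayed near their values in these fits, at 0.44 to 0.45 for WTAP, 0.41 for ALKBH5 and 0.35 to 0.39 for YTHDF1, while the adjusted p of the lost calls lay between 0.0103 and 0.0262 (limma). YTHDF1 also missed the threshold without siC library 2 (limma adjusted p = 0.0185) or siC library 3 (limma adjusted p = 0.015), and after median-ratio rescaling of the libraries (0.33 on the log2 scale, limma adjusted p = 0.0102).

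METTL3 was at 14.7, 15.5 and 14.6 FPKM in siSRF, above every siC library, with a log2 fold change of 0.27 (95% interval 0.10 to 0.44, limma adjusted p = 0.0363). For METTL3 limma-voom, run on the reads, gave an adjusted p of 0.00598. YTHDF3 was at 21.1, 20.2 and 19.7 FPKM in siSRF, also above every siC library, with a log2 fold change of 0.21 (95% interval 0.08 to 0.34, limma adjusted p = 0.0358). Once trends along GC content and gene length had been taken out of each library, the log2 fold change of YTHDF3 was 0.01 and that of METTL3 was 0.16.

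The other members did not pass the test in siSRF at either threshold. YTHDF2 was at 30.8, 31.6 and 29.2 FPKM, overlapping siC, with a log2 fold change of 0.12 (95% interval -0.02 to 0.27). METTL14 was at 2.43, 2.69 and 3.18 FPKM and YTHDC1 at 4.25, 3.92 and 4.80 FPKM, with intervals of -0.21 to 0.48 and -0.19 to 0.45. FTO, at 2.26, 2.17 and 2.07 FPKM, gave a log2 fold change of -0.03 (95% interval -0.30 to 0.24). YTHDC2, at 8.82, 8.55 and 8.50 FPKM, gave -0.08 (95% interval -0.22 to 0.06). With the trends along GC content and gene length taken out, YTHDC2 was called lower, at -0.34 (limma adjusted p = 0.00734). Of the 10 members it had the lowest GC content in its longest transcript, 33.4%, against 57.6% for ALKBH5, the highest.

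Over both depletions the outermost bounds of any member's 95% interval were -0.75 and 0.63 on the log2 scale, short of the value of 1 that marks a 2-fold change. SRF and IGF2BP1 themselves moved further in their own knockdowns, by -3.22 and -1.61.

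The depletions were also compared with each other, a contrast in which siC takes no part. Of the 10 members, 4 passed an adjusted p of at most 0.01, all lower in siIGF2BP1 than in siSRF, where 20.0% of all genes were called. They were METTL3 (log2 difference -0.83, 95% interval -0.97 to -0.69, limma adjusted p = 0.000148), WTAP (-0.56, limma adjusted p = 0.000203), YTHDF2 (-0.46, limma adjusted p = 0.000537) and ALKBH5 (-0.38, limma adjusted p = 0.000561). These 4 were called under each of the 16 alternative settings, leaving out any single library included. At an adjusted p of at most 0.05, YTHDF1 was added (-0.38, limma adjusted p = 0.0156), which made 5 of 10 where 32.0% of all genes were called. Genes of at least 1 FPKM, the range of the members, were called more often. Of these 14195 genes, 1785 were higher and 2437 lower in siIGF2BP1 at 0.01, and 2783 and 3620 at 0.05. The median log2 difference of the members was -0.36, against 0.02 for the 22311 genes tested and -0.04 for those of at least 1 FPKM. The median size was 0.36, against 0.37 for genes of at least 1 FPKM.

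The balance between members, of the writer complex or of a functional class, was described per library as a ratio of FPKM, with no test. The size of such a ratio depends on the gene lengths used. METTL3 stood at 4.34, 5.28 and 5.37 times METTL14 in siC, at 3.02, 2.66 and 2.44 times in siIGF2BP1, and at 6.06, 5.79 and 4.58 times in siSRF. The siIGF2BP1 libraries were thus below all others in the ratio of the 2 methyltransferase subunits. The summed writers over the summed erasers came to 0.690, 0.700 and 0.695 in siC, 0.586, 0.621 and 0.548 in siIGF2BP1, and 0.668, 0.684 and 0.675 in siSRF. YTHDF2 made up 43.3%, 46.6% and 44.7% of the summed YTHDF mRNAs in siC, 37.0%, 40.5% and 38.1% in siIGF2BP1, and 41.8%, 42.6% and 41.5% in siSRF. FTO made up 5.33% ± 0.224 of the summed erasers in siC, 4.05% ± 0.256 in siIGF2BP1 and 3.97% ± 0.170 in siSRF (SD, n = 3). In siIGF2BP1 FTO itself was lower in every library but missed the threshold (limma adjusted p = 0.12). In siSRF the ALKBH5 level was higher (limma adjusted p = 0.00219).

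**Figure D3:**
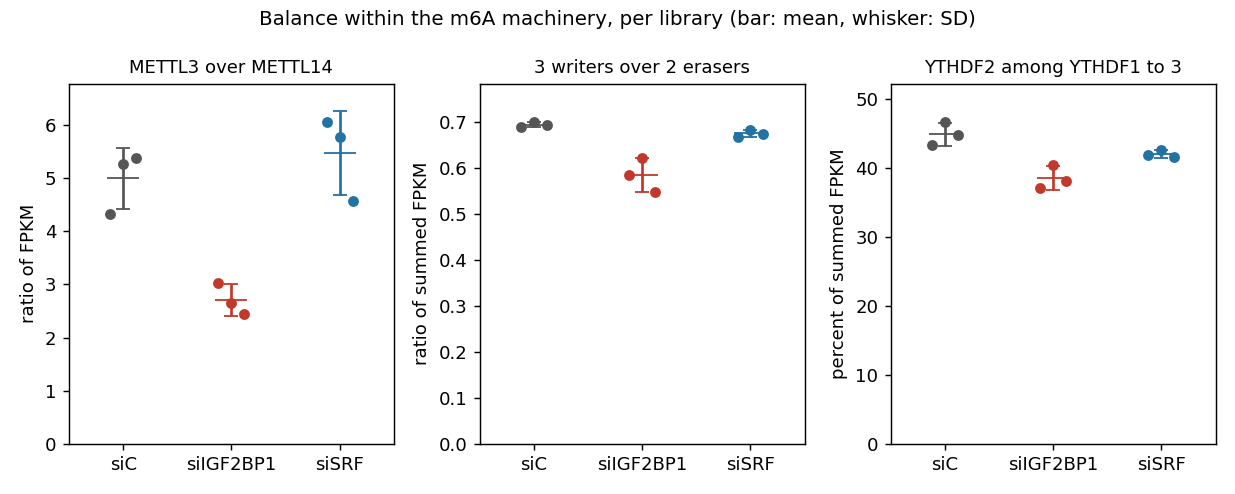
Ratio of METTL3 to METTL14, ratio of the 3 summed writers to the 2 summed erasers, and percent of YTHDF2 among the summed YTHDF1, YTHDF2 and YTHDF3 FPKM, for each library; horizontal bars are means and whiskers SD of 3 libraries. In all 3 panels the siIGF2BP1 libraries lie below the siC and siSRF libraries.

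Promoter sequences are shown for the members with the 5 smallest p upon depletion of SRF, a transcription factor that binds the CArG box, except for YTHDF3, whose sequence is not shown. The windows span 250 bases before to 50 bases after the start of the gene and come from RefSeq on GRCh38.p14. Capitals mark matches, on either strand, to CCGGAAG (the ETS type), to GGGCGG (the GC box), to CCAAT (the site of NF-Y), to the NRF1 motif or to TATAAA (the TATA box), and WTAP has 2 windows for 2 annotated starts.

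METTL3, chr14:21511291-21511590, minus strand: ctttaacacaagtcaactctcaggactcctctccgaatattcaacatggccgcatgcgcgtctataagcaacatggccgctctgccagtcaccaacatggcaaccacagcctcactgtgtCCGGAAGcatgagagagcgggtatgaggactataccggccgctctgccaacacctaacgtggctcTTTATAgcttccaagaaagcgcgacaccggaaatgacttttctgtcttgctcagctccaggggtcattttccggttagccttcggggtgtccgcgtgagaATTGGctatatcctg

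WTAP, chr6:159726867-159727166, plus strand: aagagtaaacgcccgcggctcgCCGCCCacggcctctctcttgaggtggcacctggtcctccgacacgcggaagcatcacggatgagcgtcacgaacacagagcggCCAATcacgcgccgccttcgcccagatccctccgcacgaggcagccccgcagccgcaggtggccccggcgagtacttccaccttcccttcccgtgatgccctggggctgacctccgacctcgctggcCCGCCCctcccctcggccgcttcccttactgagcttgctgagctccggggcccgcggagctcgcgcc

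WTAP, second start, chr6:159727256-159727555, plus strand: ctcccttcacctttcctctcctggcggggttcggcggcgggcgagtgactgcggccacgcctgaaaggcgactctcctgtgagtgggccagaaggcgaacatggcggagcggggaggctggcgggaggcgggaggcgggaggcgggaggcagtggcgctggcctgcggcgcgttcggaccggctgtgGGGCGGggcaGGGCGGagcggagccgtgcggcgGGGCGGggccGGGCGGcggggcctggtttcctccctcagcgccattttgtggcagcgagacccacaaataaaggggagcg

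ALKBH5, chr17:18183578-18183877, plus strand: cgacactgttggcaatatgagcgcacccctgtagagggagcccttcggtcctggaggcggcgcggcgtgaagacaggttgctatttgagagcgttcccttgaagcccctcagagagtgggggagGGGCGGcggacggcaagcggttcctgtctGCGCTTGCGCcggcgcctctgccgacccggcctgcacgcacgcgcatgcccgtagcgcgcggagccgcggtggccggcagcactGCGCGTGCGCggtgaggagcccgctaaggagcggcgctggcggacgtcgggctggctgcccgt

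YTHDF1, chr20:63216082-63216381, minus strand: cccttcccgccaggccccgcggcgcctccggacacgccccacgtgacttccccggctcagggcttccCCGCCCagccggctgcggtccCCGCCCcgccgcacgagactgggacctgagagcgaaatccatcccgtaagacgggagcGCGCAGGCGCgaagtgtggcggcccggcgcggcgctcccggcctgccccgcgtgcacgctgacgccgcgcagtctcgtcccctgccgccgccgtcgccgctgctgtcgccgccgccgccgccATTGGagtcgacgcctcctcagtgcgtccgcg

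No CArG box was found in the 11 windows of the 9 members with an entry, YTHDF3 having none, and 1.29% of the 35116 windows in the table held one. A match of letters is not a bound site, and its absence says only that these letters are not in the window. The GC box occurred in 8 of the 11 windows and in 45% of all windows. The CCAAT motif occurred in 6 of 11 windows, the METTL3, WTAP and YTHDF1 promoters among them, and in 34.6% of all windows. The ETS-type motif occurred in 2 of 11, those of METTL3 and METTL14, the subunits of the methyltransferase, and in 10.3% of all. The NRF1 motif occurred in 2 of 11, those of ALKBH5 and YTHDF1, and in 5.78% of all. TATAAA occurred in METTL3 alone among the members, on the strand opposite to the gene, and in 11.5% of all windows.

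The letters GGACT, a frequent context of m6A in mRNA, were counted in the main GENCODE transcript of each member. METTL3 had 4 matches in 1980 bases, or 2.02 per kilobase, above 90.5% of the 20046 protein-coding transcripts. WTAP followed with 1.90 per kilobase, above 88.4% of them, and the median of all transcripts was 0.925 per kilobase. ALKBH5 had 1.27, METTL14 had 1.20 and YTHDF2 had 1.09 matches per kilobase. The other members were below the median, down to YTHDF1 with 1 match in 3198 bases, or 0.313 per kilobase. Such matches are letters in a sequence, and whether any of them was methylated in these cells was not measured.

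The members lie on 9 chromosomes. The METTL3 gene spans chr14:21498133-21511342 on the minus strand with 11 exons in its main transcript, and METTL14 spans chr4:118685392-118715433 on the plus strand, also with 11 exons. WTAP spans chr6:159725585-159756319, ALKBH5 chr17:18183078-18209954, FTO chr16:53701692-54158512, YTHDF2 chr1:28736621-28769775 and YTHDC2 chr5:113513694-113595285, all on the plus strand. YTHDF1 spans chr20:63195429-63216139 and YTHDC1 chr4:68310387-68350090, both on the minus strand. These coordinates are on GRCh38 from GENCODE, a later annotation than the one used for counting.

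The genes most like the called members across the 9 libraries were found by Pearson's r on log2 values among 10379 protein-coding genes, as a description in which the points share their conditions. For METTL3 they were CORO2B, an actin-binding coronin, NUDT19, a hydrolase, and ADAMTS6, a secreted protease, each with r = 0.994. CORO2B had mean levels of 4.63, 1.96 and 6.10 FPKM in siC, siIGF2BP1 and siSRF. For WTAP they were SYT16, of the synaptotagmin family (r = 0.995), CHORDC1, a partner of HSP90, and UTP20, a factor of ribosome assembly, both with r = 0.994. UTP20 had mean levels of 17.1, 15.4 and 27.6 FPKM in siC, siIGF2BP1 and siSRF.

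Around the 10 members stand partners of the writer complex, other adenosine methyltransferases, other proteins proposed to bind m6A, the enzymes that supply the methyl donor, and decay factors that work with YTH proteins. Of these 34 genes 33 were tested, MEIOC being too low. Upon IGF2BP1 depletion 3 fell and 0 rose at an adjusted p of at most 0.01 by limma, while 3 were higher at an unadjusted p under 0.05 and 2 by limma-voom. In siSRF 7 rose and 2 fell. For the adjusted p by limma the background shares are those given above for each comparison. The share of all genes with an unadjusted p under 0.05 was not counted, so such counts here and below have no background.

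Of the 5 writer complex partners 0 were called by limma in either depletion, 1 had an unadjusted p under 0.05 in each, and limma-voom called 0 in siIGF2BP1 and 1 in siSRF. ZC3H13, a nuclear scaffold, had the smallest p in siIGF2BP1, at -0.26 (limma adjusted p = 0.113), and RBM15B, which guides the complex to RNA, had it in siSRF, at 0.31 (limma adjusted p = 0.0313). Of the 6 other methyltransferases, METTL16, which acts on U6 and MAT2A RNA, rose by 0.35 (limma adjusted p = 0.00743) and METTL5, which modifies ribosomal RNA, rose by 0.68 (limma adjusted p = 0.0039) in siSRF. In siIGF2BP1 the smallest p of this list belonged to TRMT112, the activator of METTL5, at -0.28 (limma adjusted p = 0.0436).

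Of the 11 other proposed m6A-binding proteins, HNRNPA2B1, a nuclear ribonucleoprotein, fell in siIGF2BP1 from 78.1 FPKM ± 0.975 to 59.5 ± 0.469 (SD, n = 3), a log2 fold change of -0.39 (limma adjusted p = 0.00125). Upon SRF depletion 4 of the 11 rose. The IGF2BP1 paralogue IGF2BP2 rose from 28.4 FPKM ± 1.16 to 47.3 ± 1.74 (SD, n = 3), a log2 fold change of 0.73 (limma adjusted p = 0.000458). LRPPRC, a mitochondrial RNA-binding protein, rose by 0.46, HNRNPC by 0.31 and FXR1, a relative of FMR1, by 0.28 on the log2 scale.

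Among the 7 genes of methyl donor supply, SHMT2, the mitochondrial serine hydroxymethyltransferase, fell in both depletions, from 76.3 FPKM ± 3.43 in siC to 49.7 ± 2.60 in siIGF2BP1 and 47.6 ± 6.12 in siSRF (SD, n = 3). These comparisons share the siC libraries. MAT2A, which makes S-adenosylmethionine, fell by 0.36 on the log2 scale in siIGF2BP1 (limma adjusted p = 0.0051). AHCY, which clears S-adenosylhomocysteine, fell by 0.36 in siSRF (limma adjusted p = 0.00212), while MTRR, which reactivates methionine synthase, rose by 0.63 (limma adjusted p = 0.00176). Of the 4 decay partners tested 0 were called by limma in either depletion. In siIGF2BP1 1 had an unadjusted p under 0.05 and 1 was called by limma-voom, and in siSRF there were 0 of either kind. The smallest p in siIGF2BP1 belonged to UPF1, a helicase of nonsense-mediated decay, at -0.29 (limma adjusted p = 0.0606), and in siSRF to CNOT1, the scaffold of the deadenylase, at 0.10 (limma adjusted p = 0.187).

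**Figure D4:**
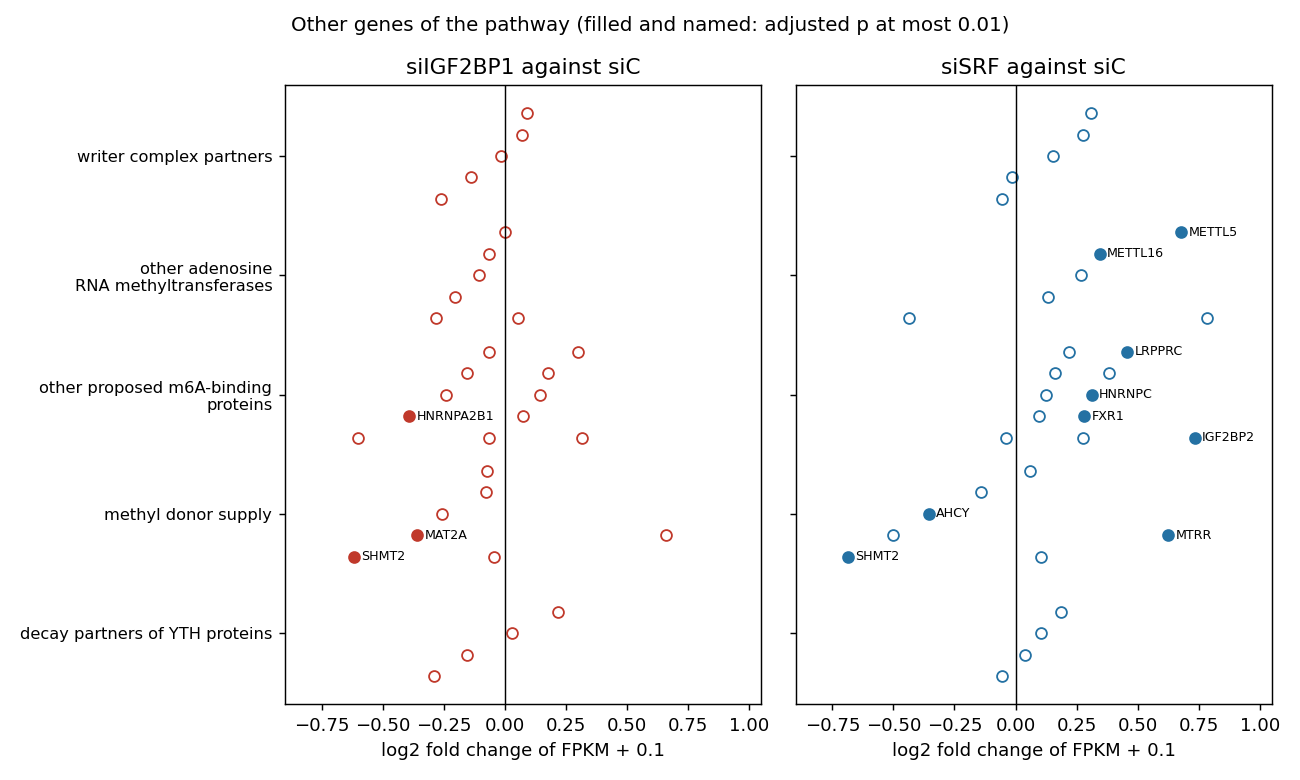
Log2 fold change of FPKM + 0.1 against siC for the 33 tested genes around the members, by list, in siIGF2BP1 (left) and siSRF (right); points are genes, spread vertically for display, and filled, named points have an adjusted p of at most 0.01. On the left 3 genes are filled, all below 0, and on the right 9, of which 7 lie above 0.

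Copies of the members could share reads with them. WTAPP1, a copy of WTAP on chromosome 11, had 10, 13 and 15 reads in siC and 4, 2 and 5 reads in siIGF2BP1, beside 532 to 618 reads of WTAP in the same libraries. Its log2 fold change of -1.46 did not pass the threshold (limma adjusted p = 0.0414). WTAPP1 overlaps MMP1 on the opposite strand, and MMP1 went from 3941 FPKM ± 197 in siC to 1024 ± 50.7 in siIGF2BP1 (SD, n = 3). Its part in the WTAPP1 value was not tested. YTHDF2P1 had 5 to 13 reads per library, and FTOP1 and YTHDF1P1 had at most 3, beside 640 to 1110 reads of YTHDF2, 239 to 423 of FTO and 356 to 674 of YTHDF1.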

How the data were processed

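ES-2 libraries were rRNA-depleted, made with a directional kit and sequenced on a NextSeq instrument. Per the labels and the methods, the authors clipped reads with cutadapt 1.14, aligned them to hg38 with HISAT2 2.1.0 (SAMtools 1.5), counted them on Ensembl genes with featureCounts 1.5.3 and scaled them with edgeR 3.18.1. The deposited values are FPKM of each library, beside fold changes and p-values of the authors, which were not used. Both tables hold the same siC values. FPKM times gene length gave whole reads for all values (tolerance 0.01), so 3 libraries per condition were also tested as reads.

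Genes averaging 0.1 FPKM or more were compared on log2(FPKM + 0.1), which understates changes of low genes, by limma 3.58.1 (trend) in R 4.3.3, with Benjamini-Hochberg adjustment over all genes tested. The fits were tested on simulated data. The members and lists were chosen with earlier results of these data known. Named genes are the members, the called genes of the lists (or the gene with the smallest p) and the 3 genes most like each of 2 called members. The labels do not say whether replicates are separate cultures, so p-values may measure technical spread. Alternatives were other pseudocounts, filters, scalings and thresholds, limma-voom on reads, robust variances, all 9 libraries, a replicate block, removal of GC and length trends, and leaving out each library.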

Additional observations from a re-analysis of the deposited data

Results flagged for a closer look

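The effects of the 2 depletions differed for 4 members in the direct contrast of siIGF2BP1 with siSRF, each tested by limma with adjustment over all genes. METTL3 differed by -0.831 on the log2 scale (limma adjusted p = 0.000148), from changes of -0.56 and 0.27 against siC. WTAP differed by -0.559 (limma adjusted p = 0.000203), from -0.11 and 0.45. YTHDF2 differed by -0.456 (limma adjusted p = 0.000537), from -0.33 and 0.12. ALKBH5 differed by -0.384 (limma adjusted p = 0.000561), from 0.03 and 0.41. Of all genes tested 20.0% were called in this contrast. In each of the 4 genes, which this same contrast picked, all 3 siIGF2BP1 libraries lay below all 3 siSRF libraries. The same held for FTO, YTHDF1 and YTHDF3, and the share of all genes with such a separation was not counted.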

How the results depend on the processing

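In siIGF2BP1 the count of called members, 1, became 2 at a threshold of 0.05, with a minimum of 1 FPKM and with all 9 libraries, 3 with limma-voom, and 0 with any library left out. The calls over all genes moved as well. They were 796 lower and 792 higher in the main fit, 1891 and 1914 with limma-voom, and 1309 and 1172 with all 9 libraries. With a minimum of 1 FPKM they were 999 and 932, and without trends along GC and length 1004 and 928. With a library left out they were not counted. The count of called genes around them, 3, became 7 at 0.05, 9 with limma-voom, 5 with all 9 libraries and 5 without trends along GC and length, and lay between 1 (without siIGF2BP1 library 3) and 3 with a library left out. In siSRF the 3 called members became 5 at 0.05, 2 with median-ratio rescaling, 4 with limma-voom and 4 without trends along GC and length, and lay between 0 and 3 with a library left out. Over all genes the siSRF calls were 1167 lower and 1498 higher in the main fit, and 2343 and 2780 with limma-voom. They were 1364 and 1340 with median-ratio rescaling, and 1117 and 1437 without trends along GC and length. The 9 genes around them became 14 at 0.05 and 14 with limma-voom, and lay between 1 and 7 with a library left out (5 without siC library 1 or 2, and 2, 1 and 3 without siSRF library 1, 2 and 3).

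Replicate numbers did not pair the libraries, with correlations of -0.024 to 0.019 between equal numbers. A replicate block gave 0 called members in siIGF2BP1 and in siSRF, with 0 and 1 genes around them, and 8 in place of 13 between the depletions. Over all genes the block left 31 lower and 60 higher in siIGF2BP1, and 244 lower and 257 higher in siSRF. Between the depletions it left 1203 lower and 872 higher in siIGF2BP1, in place of 2492 and 1968.

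Signs turned for uncalled values near 0. In siIGF2BP1 YTHDF1 was 0.0085 with median-ratio rescaling, 0.00073 with limma-voom and 0.029 without GC and length trends, and -0.062 to 0.088 with a library left out. Without these trends YTHDF3 was -0.0057 and YTHDC2 -0.18 in siIGF2BP1, and METTL14 -0.064, FTO 0.012 and YTHDC1 -0.028 in siSRF. With a library left out ALKBH5 ran from -0.014 to 0.062, YTHDC1 from -0.11 to 0.081 and YTHDC2 from -0.062 to 0.11 in siIGF2BP1, and FTO from -0.059 to 0.00035 in siSRF. The cause was not tested.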
